A study of Saccharomyces cerevisiae with 12 samples.

Results

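The autophagy (ATG) genes of Saccharomyces cerevisiae were taken as every gene probe on the array whose locus has a standard name made of ATG and a number. The RefSeq gene table held 37 such genes, and 36 of them had a probe among the 6256 gene probes, 1 probe each; ATG44 was not analysed here. All 36 passed the filter on dim probes, which kept 6083 genes, and 34 were detected on all 12 arrays. The exceptions were ATG14 and ATG16. RNA was measured on single-colour arrays in 3 strains made from the xylose-fermenting strain MT8-1X: a control strain, a strain labelled TAL-expressing and a strain labelled TAL/ADH co-expressing, here called TAL and TAL-ADH. Each was sampled after 6 h with 0 or 70 mM furfural, an aldehyde formed when plant biomass is broken down, which slows fermentation. Every group had 2 runs, with no statement on whether the runs were separate cultures. Neither the introduced genes nor their promoters are named.

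Autophagy encloses cytoplasm or chosen cargo in a double membrane, the autophagosome, and delivers it to the vacuole, the yeast lysosome, for breakdown. The Atg1 kinase complex starts the process, vesicles carrying Atg9 and lipid transfer through Atg2 build the membrane, and a phosphatidylinositol 3-kinase complex marks it. A pair of ubiquitin-like conjugation systems then couples Atg8 to its lipid. Receptors tie particular organelles or enzymes to Atg8, and vacuolar enzymes break down what arrives. In growing yeast the pathway is held low by TOR and protein kinase A, and several ATG genes are known to be transcribed more when nitrogen or carbon runs out.

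The levels below are log2 values relative to the 75th percentile of gene probes on the same array, so they compare a gene between arrays and not 1 gene with another. Each array is scaled to itself, so a change in total RNA per cell is not seen, and a shift in the mix of cells in a culture cannot be told apart from a change within cells. Of the gene spots on an array, 94.8% to 97.9% were well above background. Across genes, which are not independent replicates, the runs of a group correlated at 0.945 to 0.985. The median SD between the 7 spots of an ATG probe was 0.0625 log2, and the median SD between the 2 arrays of a group was 0.213. The number of arrays limits the precision. TAL1, the gene of yeast transaldolase, was lowest in the control strain, at 2.58 without and 0.71 with furfural, and lay between 2.82 and 4.02 in the means of the other groups. ADH1, the gene of the main fermentative alcohol dehydrogenase, did not follow the strain names: without furfural its mean was 6.30 in the control strain, 4.92 in TAL and 5.69 in TAL-ADH, and with furfural 5.38, 4.54 and 6.09 in the same order.

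A pair of groups stood against their labels. The median level of 132 ribosomal protein genes, which falls when yeast stops growing, was 2.41 to 2.93 on the arrays of the untreated control strain and of TAL-ADH at either dose. It was -0.91 to 0.07 on those of the treated control strain and of TAL at either dose. The TAL arrays without furfural thus lay with the furfural-treated control arrays, and the TAL-ADH arrays with furfural lay with the untreated ones. Whether the labels of these 2 groups were exchanged was not tested, and each comparison that uses them is given by label. This level moved with many of the ATG results below, and its part in them was not tested. The arrays lay on 3 slides: control 0 mM with TAL-ADH 70 mM, control 70 mM with TAL 70 mM, and TAL 0 mM with TAL-ADH 0 mM. The comparisons of TAL with control at 70 mM and of TAL-ADH with TAL at 0 mM do not cross slides. In the other 7 comparisons of 2 groups made here, slide and group cannot be told apart.

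**Figure D1:**
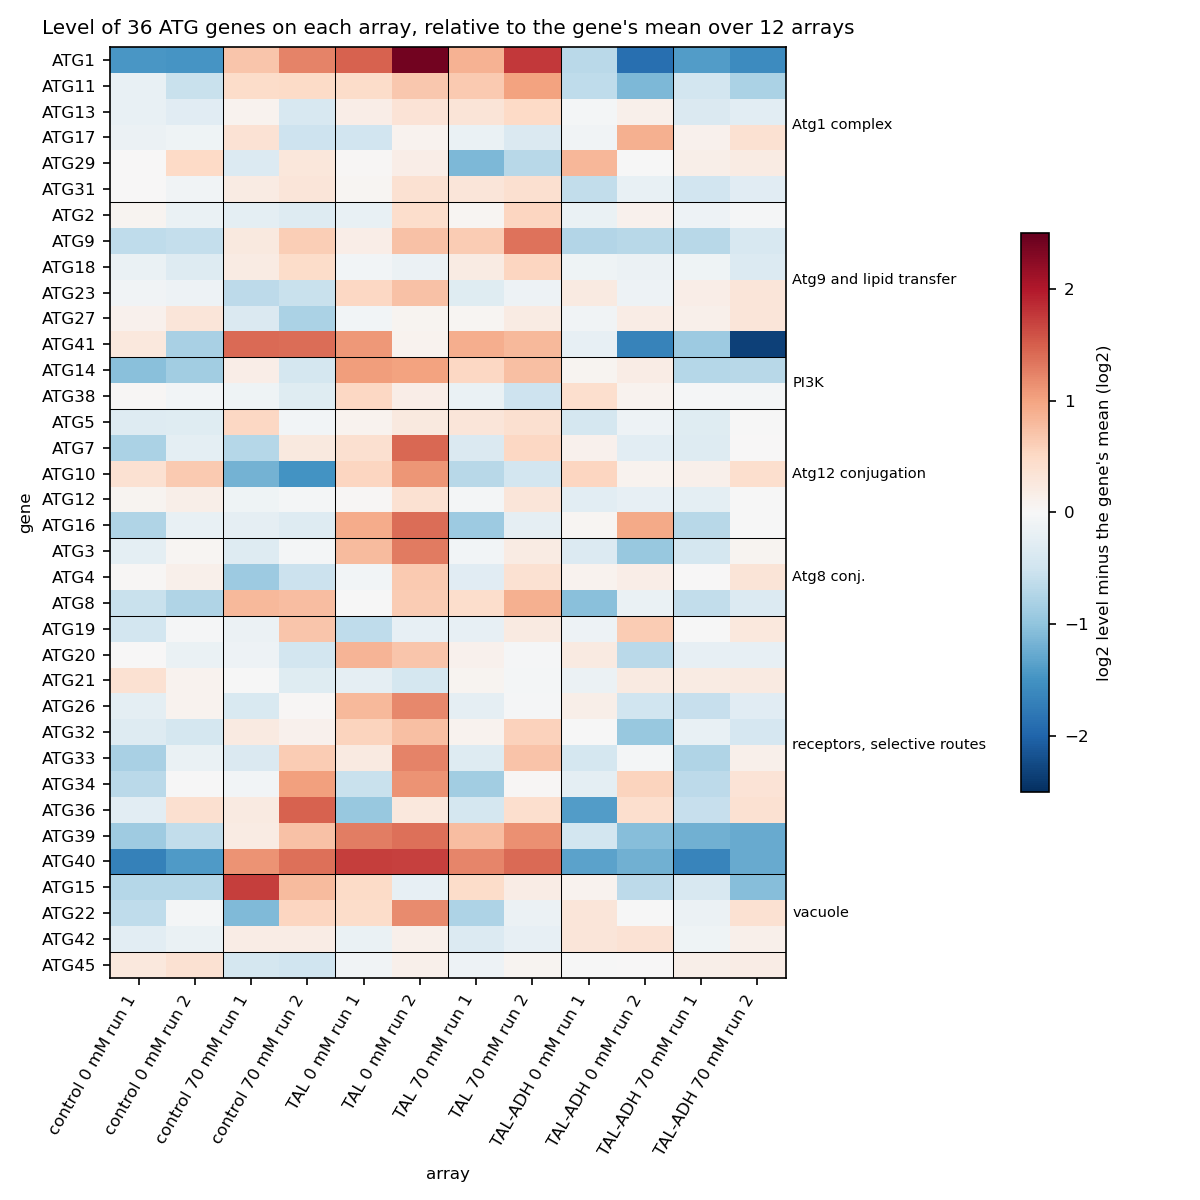
Level of each of the 36 ATG genes (rows, ordered by role) on each of the 12 arrays (columns, by strain and furfural dose), in log2 units relative to the gene's own mean over the arrays. ATG1 and ATG40 show the widest ordered contrast, high on the treated control arrays and on the TAL arrays at either dose and low on the other 6.

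In each strain the arrays with and without furfural lay on different slides, so furfural and slide cannot be told apart in these comparisons. In the control strain, the gene of the kinase that starts autophagy, ATG1, was higher with furfural. So were ATG39 and ATG40, the genes of the receptors that send parts of the endoplasmic reticulum to the vacuole. The gene of the vacuolar lipase, ATG15, was higher too. ATG8, ATG9, ATG11 and ATG14 also rose. ATG10, ATG27 and ATG45 fell. By limma, with an adjusted p under 0.05 over all genes tested, 8 of 36 members rose, where 14.0% of the 6083 genes rose, and 3 fell, where 21.5% of all genes fell. Both arrays with furfural lay above both without it for 14 members (28.5% of all genes) and below both for 9 (42.6% of all genes). The median difference of the members was 0.29 log2, and that of all genes was -0.18. After quantile normalization the median of all genes was -0.06.

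**Figure D2:**
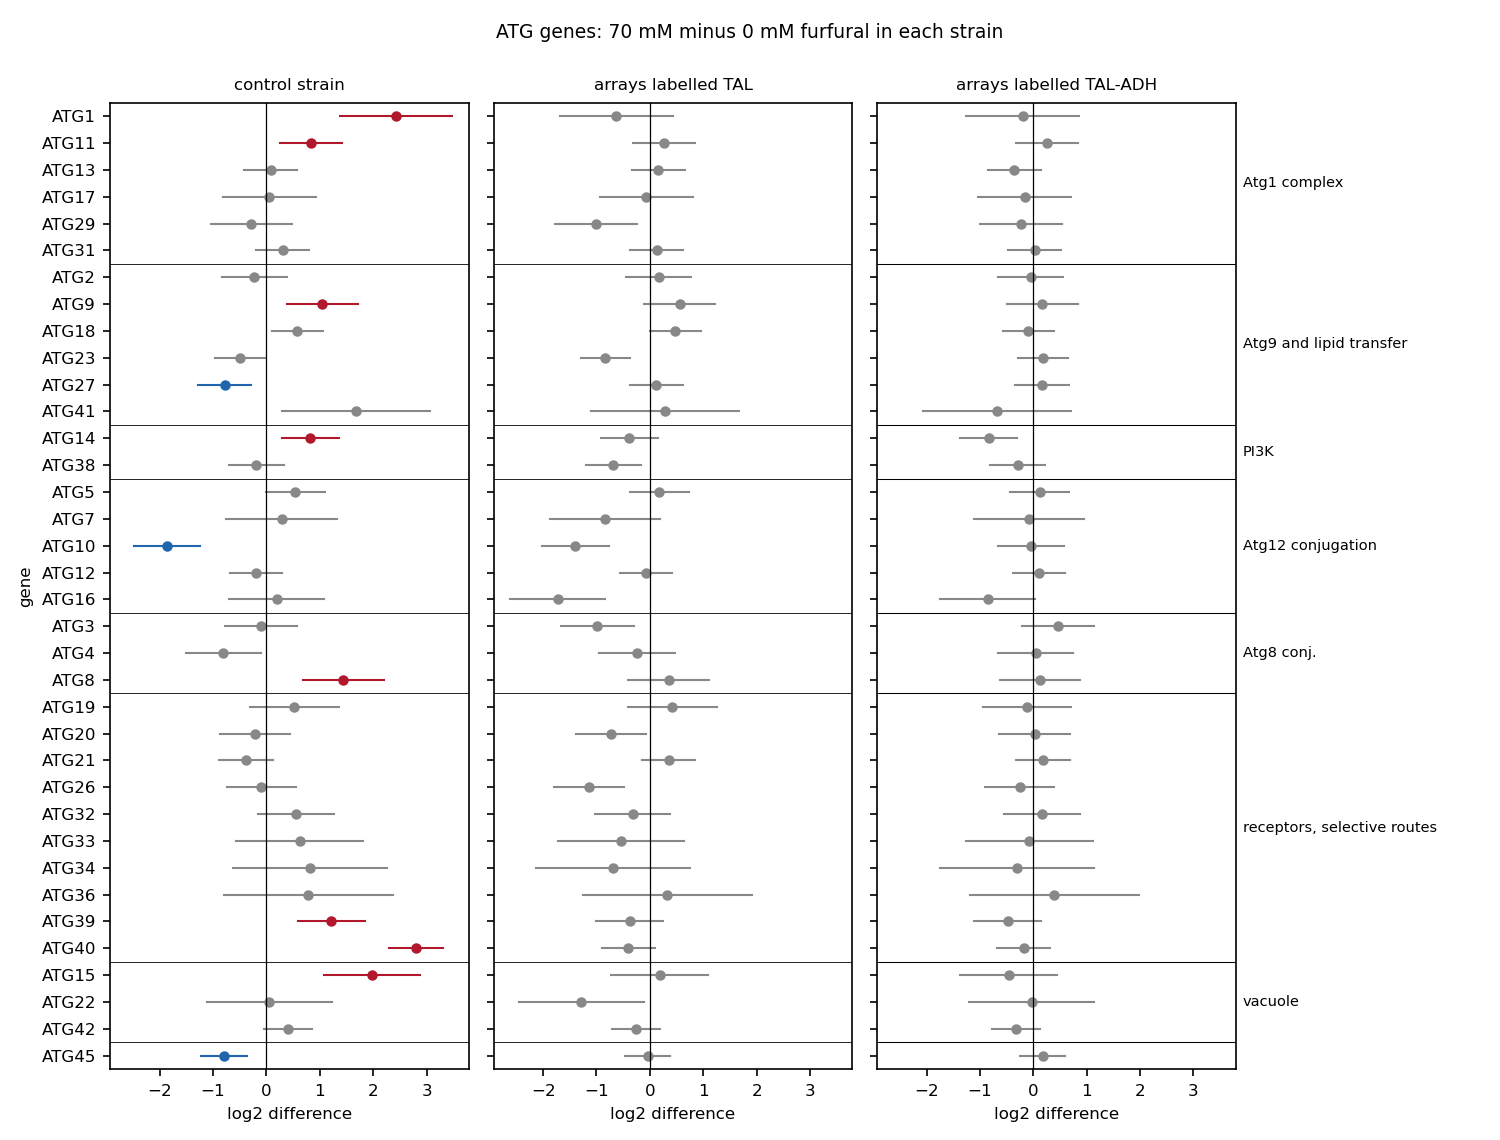
Difference between 70 and 0 mM furfural (log2, horizontal axis) for each ATG gene in each of the 3 strains; points are fitted differences from 2 arrays a group and bars are 95% confidence intervals. In the control strain 8 genes are called higher (red) and 3 lower (blue), with ATG40 highest at 2.80; in TAL and TAL-ADH no gene is called (grey).

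Of the 6 genes of the Atg1 kinase complex and its scaffolds, ATG1 and ATG11 rose with furfural in the control strain and none fell. ATG1 stood at -3.84 and -3.86 in the untreated control strain and at -1.70 and -1.15 with furfural. In TAL it was at -0.91 and 0.02 without and -1.51 and -0.62 with furfural, and in TAL-ADH at -3.07 and -4.28 without and -3.79 and -3.95 with it. The control 70 mM arrays and the 4 TAL arrays lay above all the others. The rise in the control strain was 5.38-fold (log2 2.43 ± 0.47 SE, adjusted p = 0.00448). ATG11, the scaffold that links cargo receptors to the Atg1 kinase, was high on the same arrays, over a narrower range. Its levels were 0.11 and -0.26 in the untreated control strain, 0.76 and 0.77 with furfural, 0.74 and 0.96 in TAL and 0.95 and 1.29 in TAL with furfural, -0.34 and -0.83 in TAL-ADH and -0.17 and -0.50 in TAL-ADH with furfural. ATG11 was higher by 0.84 ± 0.26 with furfural in the control strain (adjusted p = 0.031). That call was lost after quantile normalization and when any 1 of the 4 control arrays was left out.

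ATG13 and ATG17, which bind the kinase in starved cells, did not pass with furfural in the control strain. ATG13 stood at -1.18 and -1.28 in the untreated control strain and at -0.91 and -1.39 with furfural. Its other levels were -0.82 and -0.65 in TAL, -0.67 and -0.49 in TAL with furfural, -1.05 and -0.86 in TAL-ADH and -1.36 and -1.26 in TAL-ADH with furfural. The 4 TAL arrays lay above all the others, the groups of the control strain overlapped, and the furfural difference there of 0.08 had a 95% interval of -0.42 to 0.57. ATG17 stood at -2.01 and -1.97 against -1.49 and -2.37 in the control strain, -2.33 and -1.77 against -2.02 and -2.23 in TAL, and -1.94 and -0.96 against -1.75 and -1.47 in TAL-ADH, without against with furfural. These groups overlapped in the control strain, in TAL and in TAL-ADH, and ATG17 passed no test between groups. ATG29 and ATG31, which join ATG17 in a subcomplex, differed by -0.28 and 0.30 with furfural in the control strain and did not pass.

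Among the 6 genes of Atg9 vesicles and lipid transfer, ATG9 rose and ATG27 fell with furfural in the control strain. Atg9 is the membrane protein whose vesicles seed the autophagosome. Its gene stood at -1.53 and -1.49 in the untreated control strain, -0.64 and -0.28 with furfural, -0.73 and -0.17 in TAL, -0.24 and 0.47 in TAL with furfural, -1.62 and -1.59 in TAL-ADH and -1.58 and -1.28 in TAL-ADH with furfural. The control 70 mM and TAL arrays again lay above the rest, and the furfural difference in the control strain was 1.05 ± 0.30 (adjusted p = 0.0229). That call was lost when either untreated control run or run 2 of the treated control strain was left out. ATG27, which helps Atg9 move between membranes, fell by 0.78 ± 0.22 (adjusted p = 0.0236), lost after quantile normalization (highest adjusted p = 0.213 over the alternatives). ATG41, known to act with Atg9, differed widely between runs. It stood at 1.62 and 0.53 in the untreated control strain, 2.76 and 2.74 with furfural, 2.43 and 1.43 in TAL, 2.26 and 2.16 in TAL with furfural, 1.14 and -0.32 in TAL-ADH and 0.44 and -0.98 in TAL-ADH with furfural. Both treated control arrays lay above both untreated ones, yet the difference of 1.68 ± 0.61 did not pass (adjusted p = 0.0608). ATG2, the lipid transfer protein gene, was nearly level, in arrays at 0 against 70 mM: -0.42 and -0.66 against -0.72 and -0.80 in the control strain, -0.66 and -0.04 against -0.44 and 0.06 in TAL, and -0.64 and -0.38 against -0.61 and -0.50 in TAL-ADH. It passed no test in any comparison between groups.

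ATG14, which directs the phosphatidylinositol 3-kinase to the site where autophagosomes form, was among the dimmest members. It stood at -7.10 and -6.93 in the untreated control strain, where 1 of 2 arrays detected it, and at -5.88 and -6.50 with furfural. TAL gave -5.01 and -5.05 without and -5.54 and -5.29 with furfural, and TAL-ADH -5.98 and -5.86 without and -6.77 and -6.74 with it. The TAL arrays lay above all others, and the arrays with furfural were the higher ones in the control strain and the lower ones in TAL-ADH. The control rise of 0.82 ± 0.24 passed (adjusted p = 0.025), but it was -0.02 after quantile normalization (adjusted p = 0.968), so its direction depends on the scaling. ATG38, a subunit that holds the complex together, did not pass in any comparison between groups.

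**Figure D3:**
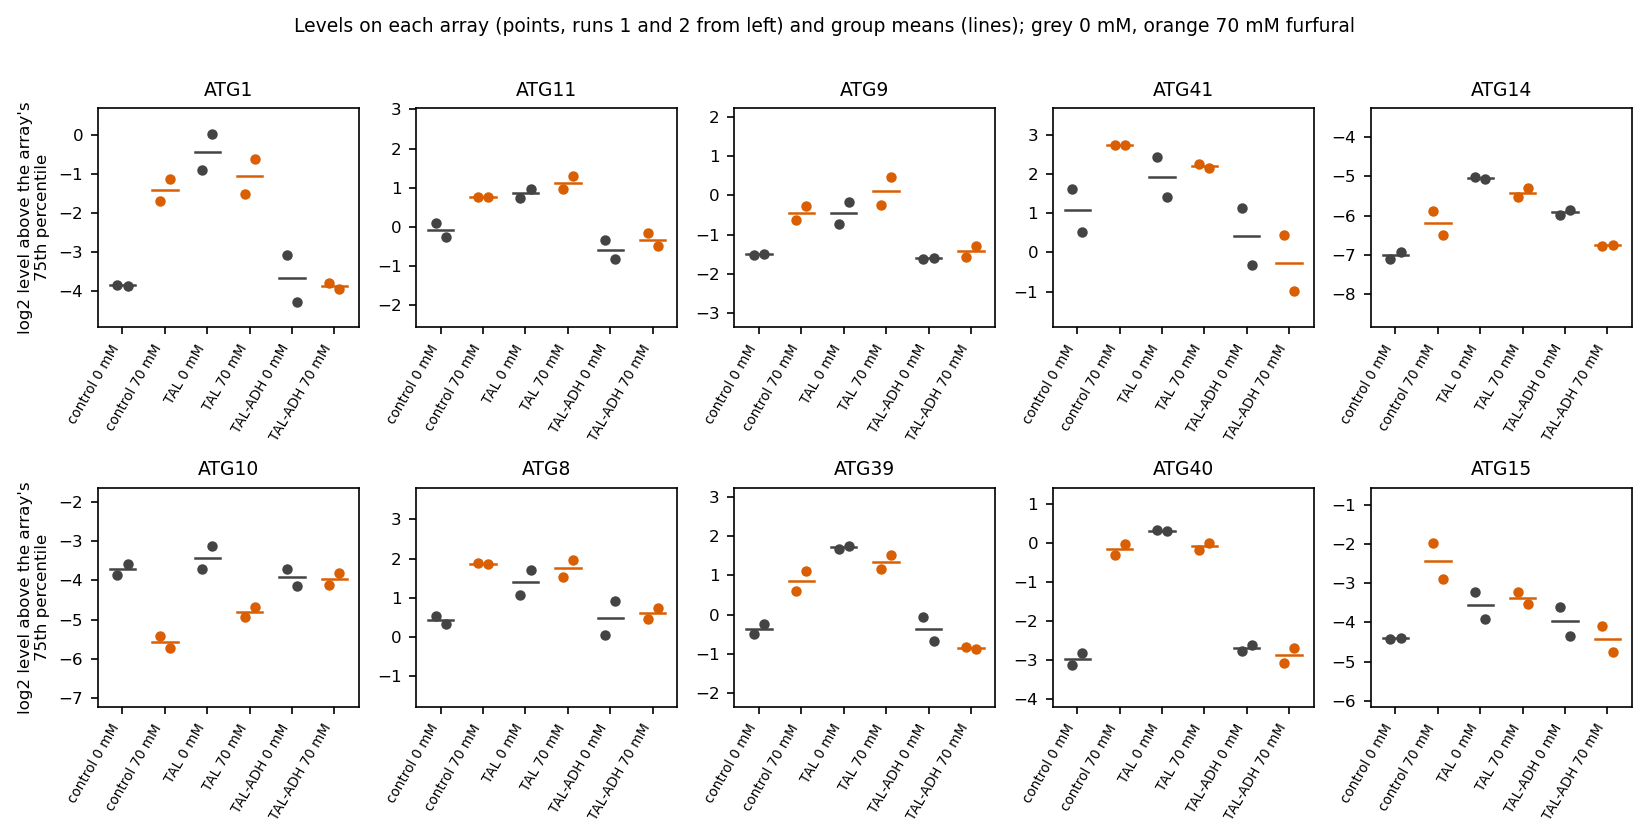
Levels on each array (log2 relative to the array's 75th percentile) for selected ATG genes in the 6 groups, grey at 0 mM and orange at 70 mM furfural, with a line at the group mean and the same span of log2 units in every panel. ATG1 and ATG40 separate the control 70 mM and TAL arrays from the rest, whereas ATG10 is lowest on the control 70 mM arrays.

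In the Atg12 conjugation system of 5 genes, ATG10 fell and no gene rose with furfural in the control strain. ATG10 encodes the enzyme that passes Atg12 to Atg5. It stood at -3.86 and -3.57 in the untreated control strain and at -5.42 and -5.74 with furfural, a fall to levels below every other array. TAL gave -3.71 and -3.13 without and -4.94 and -4.69 with furfural, and TAL-ADH -3.71 and -4.14 without and -4.12 and -3.82 with it. The control difference was -1.86 ± 0.28 (adjusted p = 0.00124); with normexp background correction it was -1.14 and did not pass (adjusted p = 0.072). At 0 against 70 mM, ATG5, the partner of Atg12, stood at -1.29 and -1.28 against -0.45 and -1.04 in the control strain, -0.88 and -0.72 against -0.66 and -0.57 in TAL, and -1.40 and -1.09 against -1.26 and -0.98 in TAL-ADH. Its groups did not overlap in the control strain, but the difference of 0.54 ± 0.25 did not pass (adjusted p = 0.117). ATG16, which joins these proteins into a larger complex, was not well above background on any of the 4 control arrays. Its measured levels were -8.13 and -7.56 in the untreated control strain, -7.60 and -7.71 with furfural, -6.45 and -5.97 in TAL, -8.28 and -7.59 in TAL with furfural, -7.33 and -6.43 in TAL-ADH and -8.07 and -7.39 in TAL-ADH with furfural. Both arrays detected it in TAL at 0 mM, and neither did in TAL at 70 mM.

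Atg8 becomes attached to lipid, coats the growing membrane and is used up in the vacuole, and its gene is a standard transcriptional marker of induced autophagy in yeast. ATG8 stood at 0.53 and 0.33 in the untreated control strain, 1.89 and 1.85 with furfural, 1.08 and 1.72 in TAL, 1.53 and 1.97 in TAL with furfural, 0.04 and 0.92 in TAL-ADH and 0.47 and 0.74 in TAL-ADH with furfural. The control rise was 2.72-fold (log2 1.44 ± 0.33, adjusted p = 0.00979), and both treated arrays lay above both untreated ones. The genes of the enzymes that process Atg8 did not rise with it. ATG4, the protease that trims Atg8, compared at 0 against 70 mM, stood at -2.22 and -2.12 against -3.17 and -2.79 in the control strain, -2.33 and -1.61 against -2.54 and -1.87 in TAL, and -2.17 and -2.10 against -2.25 and -1.93 in TAL-ADH. Its difference in the control strain was -0.81 ± 0.31 (adjusted p = 0.0716), without overlap of the groups. ATG3, the enzyme that transfers Atg8 to lipid, stood at -2.06 and -1.77 in the untreated control strain, -2.15 and -1.87 with furfural, -1.03 and -0.52 in TAL, -1.89 and -1.63 in TAL with furfural, -2.16 and -2.78 in TAL-ADH and -2.25 and -1.76 in TAL-ADH with furfural. It was high only on the TAL arrays without furfural, and the control groups overlapped.

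Of the 10 measured genes of cargo receptors and selective routes, ATG39 and ATG40 rose with furfural in the control strain and none fell. Atg40 is a receptor for the cortical endoplasmic reticulum and Atg39 for the nuclear envelope. ATG40 stood at -3.11 and -2.82 in the untreated control strain, -0.30 and -0.03 with furfural, 0.32 and 0.29 in TAL, -0.19 and 0.00 in TAL with furfural, -2.76 and -2.62 in TAL-ADH and -3.07 and -2.68 in TAL-ADH with furfural. The gap between its high and low arrays was wider than the spread within either set. The control rise was 6.97-fold (log2 2.80 ± 0.22, adjusted p = 6.88e-05). ATG39 stood at -0.50 and -0.23 in the untreated control strain, 0.59 and 1.11 with furfural, 1.67 and 1.76 in TAL, 1.15 and 1.52 in TAL with furfural, -0.07 and -0.69 in TAL-ADH and -0.82 and -0.89 in TAL-ADH with furfural. It was high on the same arrays as ATG40, and its control rise was 1.22 ± 0.28 (adjusted p = 0.0094).

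Receptors of other cargo did not pass with furfural in the control strain in the fit on group means. ATG19, the receptor that brings aminopeptidase I to the vacuole, compared at 0 against 70 mM, stood at -1.87 and -1.43 against -1.54 and -0.70 in the control strain, -2.03 and -1.61 against -1.61 and -1.19 in TAL, and -1.54 and -0.77 against -1.41 and -1.15 in TAL-ADH. Its groups overlapped in the control strain, and the difference was 0.52 ± 0.37 (adjusted p = 0.29). The mitophagy receptor gene ATG32 differed by 0.55 (adjusted p = 0.2) and the peroxisome receptor gene ATG36 by 0.78 (adjusted p = 0.41). ATG33, also needed for mitophagy, differed by 0.62 (adjusted p = 0.378), and ATG34, a receptor for vacuolar alpha-mannosidase in starved cells, by 0.82 (adjusted p = 0.341).

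In the vacuole, ATG15 encodes the lipase that opens the autophagic body. It stood at -4.41 and -4.41 in the untreated control strain and at -1.97 and -2.90 with furfural. TAL gave -3.21 and -3.91 without and -3.23 and -3.52 with furfural, and TAL-ADH -3.60 and -4.35 without and -4.10 and -4.76 with it. The treated control arrays were the highest of the 12. The control rise was 3.94-fold (log2 1.98 ± 0.40, adjusted p = 0.00563). ATG22, which exports amino acids from the vacuole, and ATG42, a vacuolar carboxypeptidase gene, differed by 0.05 and 0.40 and did not pass. ATG45, given no role here, fell by 0.80 ± 0.19 (adjusted p = 0.0108).

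The calls of ATG1, ATG15 and ATG40 in the control strain were kept under all 18 alternative settings, and each other call there was lost in at least 1. Leaving out control 0 mM run 1 or run 2 brought the number of members called from 11 to 5 in each case. In both of those fits fewer of all genes were called too. Without the 4 arrays that stood against their labels, 9 members were called, where 29.3% of all genes were. Of these 9, 8 were among the 11. ATG11, ATG14 and ATG27 lost their calls in that fit, and ATG41 was newly called.

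In TAL and in TAL-ADH no member passed the furfural test. Each of these tests uses a group that stood against its label: untreated TAL in the first and treated TAL-ADH in the second. The ribosomal protein level in TAL was -0.43 and -0.91 without and -0.06 and -0.86 with furfural. In TAL-ADH it was 2.41 and 2.835 without and 2.86 and 2.93 with furfural. Each test thus sets low arrays against low or high against high. The part of this level in the missing calls was not tested. In TAL, 10 members had an unadjusted p under 0.05 by limma, where 13.9% of all genes did, and 0.0986% of all genes passed after adjustment. ATG16 is among these 10, at -1.72. It passed the filter on dim probes only through the TAL 0 mM arrays, where it was high, so its place there is no support. The lowest adjusted p among members was 0.114, for ATG10, at -1.39 ± 0.28. The median difference of the members was -0.25, and of all genes -0.08. In TAL-ADH, 1 member had an unadjusted p under 0.05, ATG14, at -0.84 with an adjusted p of 0.999, where 3.50% of all genes did and 0.0329% passed after adjustment. There the difference of ATG40 was -0.18 with a 95% interval of -0.68 to 0.32, and that of ATG1 was -0.20 with an interval of -1.25 to 0.86.

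Taking the labels as given, the furfural effect differed between strains for some members. For ATG40 the effect in TAL minus that in the control strain was -3.20 ± 0.31 log2 (adjusted p = 0.000894), and for TAL-ADH minus the control strain it was -2.98 ± 0.31 (adjusted p = 0.000791). In TAL, 3 members passed, all with a lower effect than in the control strain (ATG1, ATG39 and ATG40), where 5.10% of all genes had a lower and 5.13% a higher one. In TAL-ADH, 7 passed: the effect on ATG1, ATG14, ATG15, ATG39 and ATG40 was lower than in the control strain, where 8.40% of all genes were, and that on ATG10 and ATG45 was higher, where 11.2% were. Both tests use the same 4 control arrays, and the first uses the TAL 0 mM arrays and the second the TAL-ADH 70 mM arrays that stood against their labels. ATG40 passed in both under every alternative that was run, and the other calls did not. The first count fell to 1 when either untreated control run, run 2 of untreated TAL or run 1 of treated TAL was left out. The second was 3 without either control 0 mM run, 4 without control 70 mM run 2 or TAL-ADH 70 mM run 1, and 2 without TAL-ADH 70 mM run 2. Between TAL-ADH and TAL no member and 0% of all genes passed; 3 members, and 6.67% of all genes, had an unadjusted p under 0.05 by limma.

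Over all 3 strains in 1 additive fit, no member and 0% of all genes passed the furfural test; 8 members, and 22.7% of all genes, had an unadjusted p under 0.05 by limma. The lowest adjusted p among members was 0.121, for ATG10, at -1.10 ± 0.28. With the slide as a further term ATG40 passed, at 3.02 (adjusted p = 0.00572), where 3.55% of all genes passed. That fit has as many terms as groups and takes the furfural effect to be equal in every strain. For ATG40 the effects in TAL and TAL-ADH differed from that in the control strain by -3.20 and -2.98. The 3.02 is thus not a rise seen in each strain.

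Without furfural, the TAL strain held 12 of 36 members higher than the control strain and none lower, where 14.9% of all genes were higher and 13.5% lower. ATG1 was 10.6-fold higher (log2 3.41 ± 0.47, adjusted p = 0.000903), ATG40 9.67-fold (3.27 ± 0.22, adjusted p = 4.02e-05) and ATG39 4.23-fold (2.08 ± 0.28). ATG14 was higher by 1.98 ± 0.24. ATG16 was at least 2.14-fold higher (adjusted p = 0.0148), given as a bound on this scale because no untreated control array detected it. ATG16 passed the filter on dim probes only through the TAL 0 mM arrays, where it was high. Its place among the 12 is therefore no support for them. Its difference was smaller and did not pass after quantile normalization (0.96, adjusted p = 0.225) or with normexp background correction (0.33, adjusted p = 0.798), which is under that bound. With normexp ATG14 did not pass either (0.86, adjusted p = 0.234). The others were ATG3, ATG7, ATG9, ATG11, ATG23, ATG26 and ATG32, at 0.73 to 1.43. ATG7, which lost its call in 9 of 17 alternatives, encodes the enzyme that activates both Atg8 and Atg12, and ATG26 a sterol glucosyltransferase. The median of the members was 0.68 and that of all genes 0.03. These TAL arrays are those with the low ribosomal protein level. Leaving out control 0 mM run 1 or TAL 0 mM run 2 gave 4 calls, and leaving out control 0 mM run 2 gave 5; ATG1, ATG39 and ATG40 passed under every alternative that was run.

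**Figure D4:**
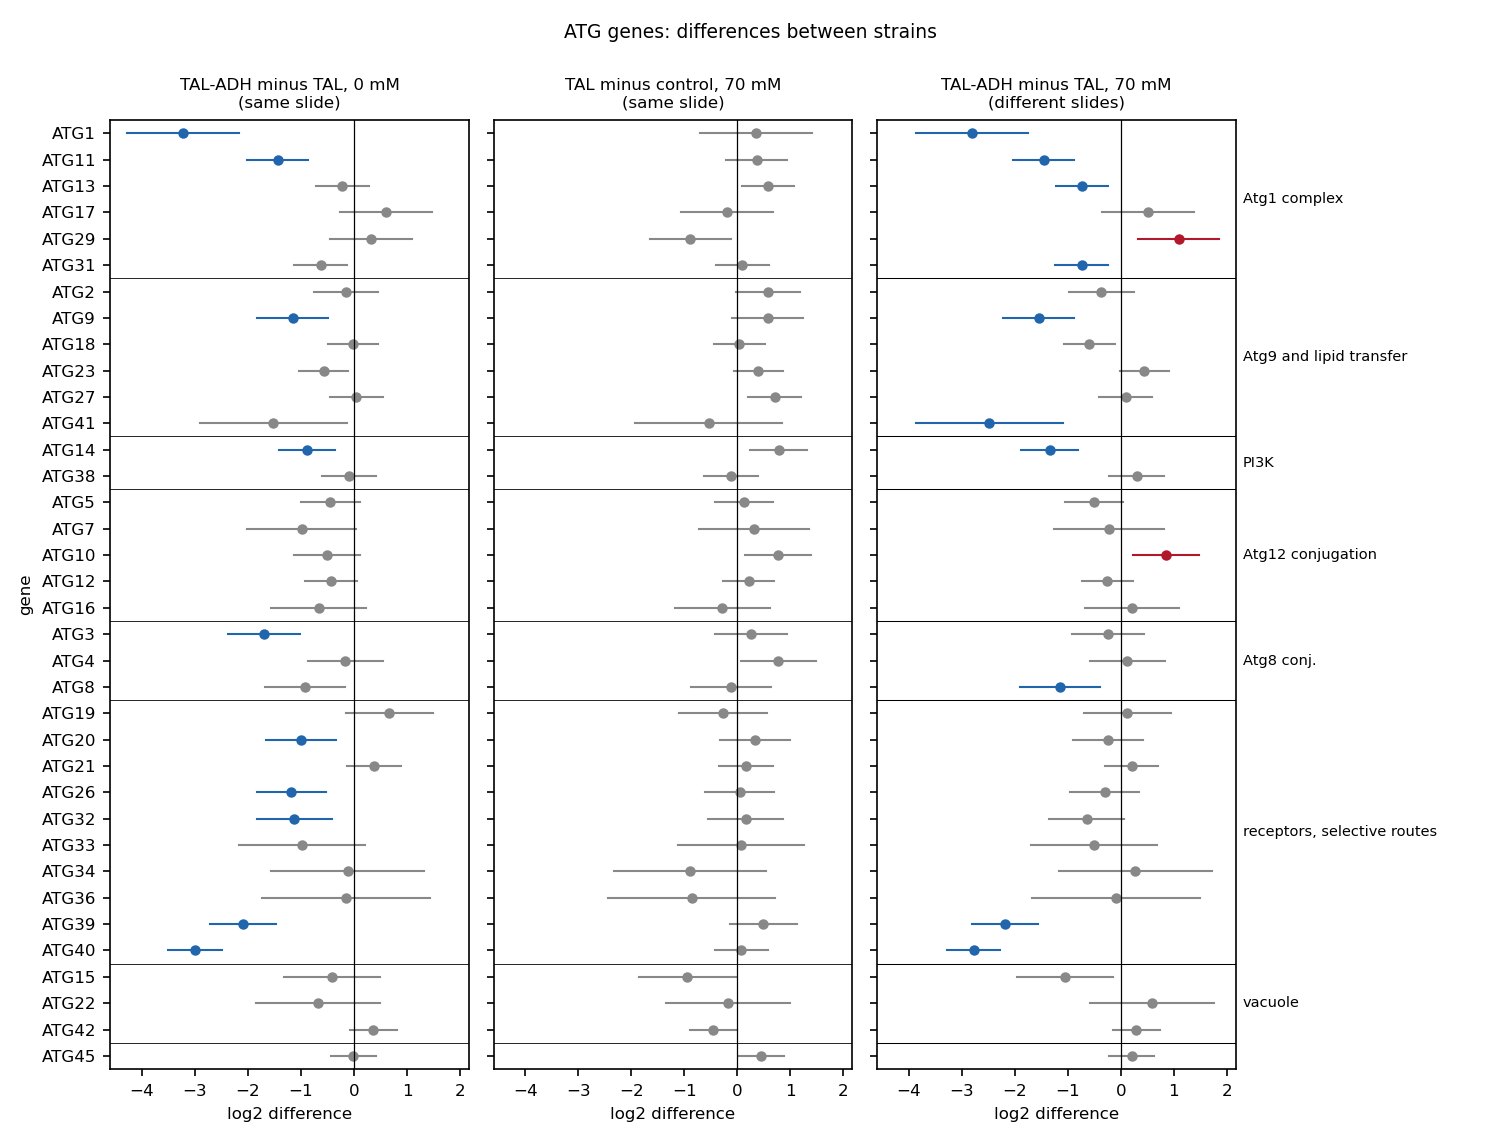
Differences between strains (log2, horizontal axes) for each ATG gene at 0 and at 70 mM furfural, as fitted differences with 95% confidence intervals, red where called higher, blue where called lower and grey where not called. The panels are TAL-ADH minus TAL at 0 mM, with 10 genes lower, and TAL minus control at 70 mM, with none called. The last is TAL-ADH minus TAL at 70 mM, with 10 genes lower and 2 higher.

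TAL-ADH and TAL at 0 mM were hybridised on the same slide, so this comparison does not cross slides. It does use the TAL 0 mM arrays, which stood against their label. Their ribosomal protein levels were -0.43 and -0.91, against 2.41 and 2.835 in TAL-ADH at 0 mM, and the part of that level here was not tested. TAL-ADH held 10 members lower than TAL and none higher, where 13.0% of all genes were lower and 12.7% higher. ATG1 was 9.38-fold lower (log2 -3.23 ± 0.47, adjusted p = 0.00135), ATG40 7.99-fold lower (SE 0.22 log2), ATG39 4.26-fold lower (-2.09 ± 0.28), ATG3 3.24-fold lower (-1.69 ± 0.30) and ATG11 2.71-fold lower (-1.44 ± 0.26). These 5 passed under every alternative that was run. ATG9, ATG14, ATG20, ATG26 and ATG32 were lower by less, at -1.18 to -0.89. ATG20 encodes a sorting nexin used in selective routes. The median of the members was -0.54, and that of all genes was 0.04. Leaving out TAL 0 mM run 2 gave 5 calls, and leaving out TAL-ADH 0 mM run 2 gave 6.

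TAL-ADH and the control strain did not differ in any member at 0 mM by the adjusted test, which 0.0164% of all genes passed. By limma, 3 members had an unadjusted p under 0.05, where 7.05% of all genes did, with differences over the members from -0.67 to 1.09. At 70 mM, TAL and the control strain, which shared a slide, also differed in no member, where 0.0822% of all genes passed; 9 members, and 16.2% of all genes, had an unadjusted p under 0.05. There the differences ran from -0.94 for ATG15 to 0.78 for ATG14, and the lowest adjusted p was 0.174.

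With 70 mM furfural in both strains, TAL-ADH held 9 members lower and 4 higher than the control strain, where 14.1% of all genes were lower and 22.5% higher. ATG41 was 8.13-fold lower (log2 -3.02 ± 0.61, adjusted p = 0.00531), ATG40 6.53-fold lower (-2.71 ± 0.22), ATG1 5.44-fold lower (-2.44 ± 0.47), ATG15 3.99-fold lower (SE 0.40 log2) and ATG39 3.25-fold lower (-1.70 ± 0.28). ATG8, ATG9, ATG11 and ATG31 were lower by 0.64 to 1.27, with ATG31 losing its call in 11 of 17 alternatives. ATG10 was 3.06-fold higher (1.61 ± 0.28), and ATG23, ATG27 and ATG45 were higher by 0.65 to 0.83. ATG1, ATG15, ATG39, ATG40 and ATG41 passed under every alternative that was run. With quantile normalization 9 were lower and 2 higher, where 30.7% of all genes passed in either direction. With normexp background correction 8 were lower and 2 higher, where 30% of all genes passed. Leaving out TAL-ADH 70 mM run 1 gave 7 calls, and its run 2, 6.

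Against TAL at the same dose, TAL-ADH held 10 members lower, where 13.9% of all genes were lower, and 2 higher, where 18.0% were. The 5 largest differences were in ATG1 (-2.80 ± 0.47), ATG40 (-2.78 ± 0.22), ATG41 (-2.48 ± 0.61), ATG39 (-2.19 ± 0.28) and ATG9 (-1.55 ± 0.30), which was 2.92-fold lower. ATG8, ATG11, ATG13, ATG14 and ATG31 were also lower. ATG29 was 1.09 ± 0.34 higher, but with normexp background correction it was -0.32 (adjusted p = 0.714); ATG10 was 0.85 higher and lost its call in 8 of 17 alternatives. With quantile normalization 11 members were lower and 0 higher, where 31.3% of all genes passed in either direction. With normexp 10 were lower and 0 higher, where 25.2% of all genes passed. Leaving out run 1 of either group gave 7 calls, and leaving out run 2 of either gave 6. The comparisons at 70 mM share the TAL-ADH arrays that stood against their labels.

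Furfural in the control strain, TAL-ADH against TAL at 0 mM and TAL-ADH against TAL at 70 mM share no array, though they share the fitted spread; this trio was chosen after the results were seen. Each sets arrays with a low ribosomal protein level against arrays with a high one, and the part of that level was not tested. The second uses the TAL 0 mM arrays and the third the TAL-ADH 70 mM arrays, which stood against their labels. ATG1, ATG9, ATG11, ATG14, ATG39 and ATG40 were higher in the first and lower in both others, 6 of 36 members, where 6.94% of all genes were. In the first, the difference of ATG14 was -0.02 after quantile normalization. No member had the opposite pattern, which 8.42% of all genes had. Of the 8 members that rose in the first, 6 (75%) were among the 10 lower at 0 mM, which is 60% of those 10. Over all genes these shares were 52.4% and 56.1%. At 70 mM, 7 (87.5%) were among the 10 lower, which is 70% of those, and over all genes the shares were 68.4% and 68.5%.

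In the 9 comparisons of 2 groups, 22 of 36 members (61.1%) passed at least once, where 54.8% of all genes did, and 14 never did. ATG16 is among the 22 only through TAL against control at 0 mM, and TAL at 0 mM is the group that let it pass the filter. The 14 were ATG2, ATG4, ATG5, ATG12, ATG17, ATG18, ATG19, ATG21, ATG22, ATG33, ATG34, ATG36, ATG38 and ATG42. Their largest difference was 1.28 log2 and their lowest adjusted p 0.0508. ATG12 encodes the ubiquitin-like partner of Atg5, ATG18 a phosphoinositide-binding partner of Atg2, and ATG21 a related protein used in selective routes.

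Of 24 genes of the pathway that carry other names, 3 rose, 5 fell and 16 did not pass with furfural in the control strain, shares near those of all genes (14.0% higher and 21.5% lower). Their median was -0.32. APE1, the aminopeptidase carried to the vacuole by the route of ATG19, rose by 3.02 ± 0.28 (adjusted p = 0.000126), and AMS1, the alpha-mannosidase carried by the same route, by 1.43 ± 0.46. YPT7, the GTPase of fusion with the vacuole, fell by 1.41 ± 0.30. VPS30 and VPS15, subunits of the same kinase complex as ATG14, fell by 0.67 ± 0.21 and 0.75 ± 0.20, and were chosen after their values were seen. In that complex ATG14 was called higher, in a direction that depends on the scaling, and ATG38 was not called, so no fall of the whole complex is shown. In TAL-ADH against TAL at 0 mM none of the 24 was higher and 3 were lower, where 12.7% and 13.0% of all genes were, with APE1 at -2.33 ± 0.28.

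Of 12 genes of vacuolar hydrolases, 6 rose and none fell with furfural in the control strain, where 14.0% of all genes rose and 21.5% fell, and the median was 1.29. This list also holds APE1 and AMS1. PBI2, an inhibitor of vacuolar proteinase B placed in the same list, rose by 2.16 ± 0.49, and ATH1, an acid trehalase gene, by 2.05 ± 0.59. Of 14 measured genes of the vacuolar proton pump, 5 fell and none rose, against the same shares of all genes, with a median of -0.92. VMA7 fell by 2.13 ± 0.26, VMA5 by 1.76 ± 0.38 and VMA8 by 1.18 ± 0.36.

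The counts for genes that control the pathway lay near the shares of all genes (14.0% higher and 21.5% lower). Of 14 transcription regulators of ATG genes, 1 rose and 2 fell, with a median of 0.08: MSN2 rose by 1.46 ± 0.30, whereas its relative MSN4 fell by 0.85 ± 0.28 and GCN4, the activator of amino acid synthesis genes, by 0.79 ± 0.23. Of 27 genes of TOR, protein kinase A and SNF1 signalling, 4 rose and 6 fell, with a median of 0.07. LST8, a subunit of the TOR complexes, rose by 1.82 ± 0.30, TAP42, a phosphatase regulator under TOR, fell by 1.29 ± 0.28, and NPR1, a kinase restrained by TOR, rose by 0.99 ± 0.29. These are transcript levels, and the activity of the kinases was not measured.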

How the data were processed

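Total RNA of 12 samples was hybridised to single-colour (Cy3) arrays. The authors deposited scanner files of spot intensity, per the file headers made with Agilent Feature Extraction 10.1.1.1 (the version that the submitters' processing notes also name), background-subtracted and spatially detrended within each array and not normalized between arrays. The authors also deposited log2 values, with their making not given in the sources used here; set against the scanner values, these were found to be shifted to each array's 75th percentile and centred per probe on its median (column medians between -0.167 and 0.0547, largest difference 0.00908 log2). They are thus no independent processing.

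Here log2 of the processed intensity was averaged per probe (7 spots, without those marked uneven or outlying), and the array's 75th percentile of gene probes was subtracted. A probe was detected where over 50% of its spots were well above background, and kept where detected on both arrays of a group; 6083 of 6256 were kept. Names come from the RefSeq gene table, in which 5756 probes matched a locus. Groups follow the labels. limma 3.58.1 in R 4.3.3 (jsonlite 2.0.0, and data.table in version 1.17.8) was fitted to 6 group means (6 residual degrees of freedom), with p-values adjusted over all kept genes (Benjamini-Hochberg, threshold 0.05); the fit over the 3 strains was additive with 8. The script was checked on simulated data for furfural in the control strain, with 100 of 6083 genes changed by 1 log2 and 100 by 2 log2. It called 31 and 75 of these, so a member that did not pass may still differ. Few genes were changed there, so these shares need not hold for the real comparisons. The p-values measure only the spread between runs, which may be technical. A fold against a group without detection is a lower bound.

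Levels on every array are given for 12 well-known members of the roles, for the 5 called members with the largest difference in each comparison, and differences for the 3 largest calls of each related list with furfural in the control strain. The members and lists were chosen with earlier results of these data known. Alternatives were quantile normalization, normexp background correction with an offset of 50 on the median signals (the mean signals that were planned are not used here), no filter, the deposited log2 values, a run block, a slide term, and each array left out. Added after seeing the data was a fit without the TAL 0 mM and TAL-ADH 70 mM arrays. The related lists were not followed under the alternatives. No sequences are given.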

Additional observations from a re-analysis of the deposited data

Results flagged for a closer look

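The furfural effects of 10 gene and strain pairs differed between strains by the test of the difference itself (limma, adjusted p under 0.05, 2 arrays a group). Against the control strain, the effect in TAL was different by -3.05 log2 for ATG1, -1.59 for ATG39 and -3.20 for ATG40. In TAL-ADH it was different by -2.62 for ATG1, -1.66 for ATG14, -2.43 for ATG15, -1.69 for ATG39 and -2.98 for ATG40, and by 1.82 for ATG10 and 0.97 for ATG45. Each of these differences uses the untreated control arrays and either the TAL 0 mM or the TAL-ADH 70 mM arrays, the groups that stood against their labels by the ribosomal protein level. Whether that level accounts for them was not tested.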

How the results depend on the processing

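Over the alternatives, calls of single members were kept in 977 of the cases examined, lost in 188 and reversed in 2. The reversals were ATG14 with furfural in the control strain, at -0.0248 after quantile normalization, and ATG29 in TAL-ADH against TAL at 70 mM, at -0.32 with normexp background correction; both are dim, and the cause was not tested. Counts under quantile normalization, normexp, no filter, the deposited table and without the 4 arrays stayed within 1.5 times. Leaving out 1 array, the lone array of its group being assumed to vary like the others, gave 5 to 12 members for furfural in the control strain, 4 to 13 for TAL against control at 0 mM, 5 to 10 for TAL-ADH against TAL at 0 mM, 6 to 13 for TAL-ADH against control and 6 to 12 against TAL at 70 mM. It gave 1 to 4 and 2 to 8 for the furfural effects of TAL and TAL-ADH against that of the control strain, 0 to 1 over the 3 strains (ATG10 at -1.29 without TAL-ADH 0 mM run 2, adjusted p = 0.0251), and 0 elsewhere. Where leaving out 1 array lowered a count of members most, fewer of all genes passed too than with every array in. With the slide as a term, 1 member passed over the 3 strains, where 3.55% of all genes did, in a fit that takes the furfural effect to be equal in every strain.

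The labels give runs the same numbers without saying what a number shares. Run deviations correlated at 0.0435 to 0.861 over 15 group pairs, 14 of them over 0.1, a hint from the data of something shared by a number; the design does not state it. With a replicate block, 18 members passed for furfural in the control strain, where 50.2% of all genes did. Among them were ATG18, ATG19, ATG33, ATG34, ATG36 and ATG41 as higher and ATG4 as lower, which had not passed without it. In TAL 1 passed (ATG16), where 0.904% of all genes did. In TAL-ADH against TAL at 0 mM 17 passed, where 41.1% of all genes did. For the furfural effects of TAL and TAL-ADH against control 9 and 14 passed, where 22.2% and 36.3% of all genes did. ATG16 is the 1 in TAL and is among the 9. It passed the filter on dim probes only through the TAL 0 mM arrays, where it was high, so it is no support in either count. Signal near background limits ATG14 and ATG16.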
